A study of Mus musculus with 12 samples.

Results

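Amino acid and monocarboxylate transporters carry amino acids, lactate, pyruvate, ketone bodies and related small acids across the plasma membrane and the lysosomal membrane. The genes described here were the members of the Slc1, Slc3, Slc7, Slc16, Slc36, Slc38 and Slc43 families, chosen by gene symbol, plus Slc6a15 and without Slc38a2. The rule found 56 genes among the 19494 genes with a symbol on the array, each read by its probe set with the highest mean. Of these, 42 lay above a filter that left out the lowest 25% of genes by mean signal and were tested among 14620 genes in all. Slc6a15 entered the set by name, and its difference between the populations was already known from these data, so it adds no independent support. The symbol rule also took in Slc7a6os, a gene named for its place on the strand opposite Slc7a6 and not a known carrier.

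The study measured gene expression in blood-forming cells of the mouse bone marrow with microarrays. Hematopoietic stem cells (HSC) were sorted as CD48-CD150+ cells and multipotent progenitors (MPP) as CD48+CD150- cells, both within the LSK gate, which selects immature marrow cells by surface markers. The control mice (WT) were Nfat5 +/+ Vav-Cre and the deficient mice (KO) were Nfat5 fl/fl Vav-Cre, so all mice carried Vav-Cre, a Cre recombinase active in blood cells. Each of 3 WT mice (numbers 3, 12 and 64) and 3 KO mice (numbers 2, 11 and 70) gave cells of both kinds for 1 array each, so the 12 arrays formed 4 groups with 3 mice in each. The mouse is read from the number in the title of each array. The mice were untreated, no source used here states their age or sex, and each array was made from 300 pg of amplified RNA. Nfat5 encodes a transcription factor of the Rel family best known for the response to salt and osmotic stress. The values are log2 intensities, so a difference of 1 is a doubling, and levels are compared within a gene, never between genes, because probe sets differ in brightness.

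Many of these carriers work in pairs. The heavy chain Slc3a2 brings light chains of the Slc7 family, such as the leucine carrier Slc7a5 and the cystine carrier Slc7a11, to the cell surface, where they exchange 1 amino acid for another. Slc1a5 and Slc38 members bring in glutamine and other neutral amino acids, Slc7a1 brings in arginine and lysine, and Slc36a1 and Slc38a9 sit on lysosomes, where they are linked to amino acid sensing by the growth kinase complex mTORC1. The Slc16 family includes the lactate and pyruvate carriers Slc16a1, Slc16a3 and Slc16a7, which need a partner protein, basigin (Bsg) or embigin (Emb), to reach the membrane.

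The arrays had medians of 5.85 to 5.95 over all genes. HSC markers averaged 7.38 to 8.17 on the HSC arrays and 6.52 to 6.76 on the MPP arrays, and MPP markers 6.11 to 6.95 against 9.71 to 9.92, in the direction of the labels; Slamf1 and Cd48 among them encode the sorted proteins. Nfat5 read 8.60 ± 0.36 (SD, n = 3) in WT and 7.69 ± 0.31 (n = 3) in KO HSC, which is 53.1% of the WT level, and 54.8% in MPP. Whether its probe set lies in the deleted part of the gene is not known here, so this checks the labels only in part. KO mouse 2 had an HSC array unlike the others: the SD of its genes around their group means was 0.438 against 0.276 to 0.378 on the other arrays, and named transporter values that turn or move by more than 1.5 times without it are given both ways. Without that array the sign turned for 8 of the 42 tested transporters between KO and WT in HSC. It turned for 8 between HSC and MPP in KO mice and for 5 over both genotypes. Sign turns were not counted over all genes, so these counts have no background to be set beside.

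Of the 56 genes, 14 fell under the filter value of 4.96 on average. They were Slc1a2, Slc1a3, Slc1a4, Slc3a1, Slc7a2, Slc7a3, Slc7a12, Slc7a14, Slc7a15, Slc16a4, Slc16a8, Slc16a14, Slc38a4 and Slc38a11. Their means ran from 3.52 to 4.91, and 10 of them had no array above the filter value. Slc1a4, the serine and alanine exchanger ASCT1, was among them, with arrays between 4.11 and 4.94. Slc16a4 reached the highest single value of the 14, at 6.27 in HSC of WT mouse 12, while its 11 other arrays lay between 4.16 and 5.41. Among the 42 tested genes the spread over the 12 arrays also differed widely: 21 had a range under 1 and 11 a range over 2. Slc38a10, with 5.90 to 10.07, had the widest range, and its arrays overlapped between populations and between genotypes. It was lower in HSC in 5 of 6 mice, with a difference from MPP of -1.26 (SE 0.69) over both genotypes. Its highest values were 10.07 and 8.52 in MPP of KO mice 70 and 2, 9.24 in MPP of WT mouse 64 and 8.79 in HSC of KO mouse 11, and it passed no comparison.

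The first question was which of these carriers differ between stem cells and progenitors. Over both genotypes 2 of the 42 tested genes were higher in HSC, Slc16a9 and Slc6a15, and none was lower. This is 4.76% of the genes tested here, at a Benjamini-Hochberg adjusted p under 0.05 in limma's moderated test, beside 4.85% of all 14620 genes. In WT mice alone Slc6a15 passed, beside 2.07% of all genes, and in KO mice alone Slc16a9 passed, 1 of 42 beside 1.26%. Slc6a15 was chosen by name with its difference known, and it passed the filter only through its HSC arrays. Without it 1 of 41 genes (2.44%) passed over both genotypes and 0 of 41 in WT mice. The median difference between HSC and MPP over both genotypes was 0.05 for these carriers and 0.05 for all genes.

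Slc16a9, also called MCT9, is a Slc16 member known as a carnitine and creatine carrier rather than a lactate carrier. Its promoter is printed here because the gene passed the test and holds the core letters of NFAT sites. The RefSeq window of 250 bases before its start is chr10:70245026-70245275 on the plus strand of GRCm38.p6, with the match in capitals, 216 to 211 bases before the start and on the strand opposite to the gene.
Slc16a9: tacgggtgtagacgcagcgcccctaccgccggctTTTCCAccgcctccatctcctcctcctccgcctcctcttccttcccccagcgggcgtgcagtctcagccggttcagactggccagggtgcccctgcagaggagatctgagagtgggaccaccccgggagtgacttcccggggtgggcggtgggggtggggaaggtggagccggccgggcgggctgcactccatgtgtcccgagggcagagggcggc
The letters searched were TGGAAA on both strands, and 18.6% of 32851 promoter windows of this length hold them, as do 10 of the 51 windows (19.6%) found for 40 of the 56 genes. A match in this window is a description of the letters and not of a bound site.

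Slc16a9 read 6.98, 7.64 and 7.23 in HSC of WT mice 3, 12 and 64, and 7.90, 8.29 and 8.39 in HSC of KO mice 2, 11 and 70. In MPP it read 6.01, 6.13 and 6.90 in the same WT mice and 6.03, 6.22 and 6.54 in the KO mice. All 6 HSC arrays lay above all 6 MPP arrays, a separation that 1 of the 42 tested carriers (2.38%) and 4.21% of all genes showed. The difference over both genotypes was 1.43 (SE 0.19, adjusted p = 0.00168), or 2.70-fold on this scale. In KO mice it was 1.93 (SE 0.27, adjusted p = 0.00599) and in WT mice 0.94 (SE 0.27, adjusted p = 0.129). The KO call was lost without mouse 2 (1.96, adjusted p = 0.0509) and without mouse 11 (1.86, adjusted p = 0.0818), each of which leaves 2 KO mice, while the call over both genotypes held whichever mouse was left out. The test of whether the difference itself depended on genotype gave 0.99 (SE 0.38, adjusted p = 0.9996).

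Slc6a15, or B0AT2, is a sodium-driven carrier of branched-chain amino acids and proline, best known from neurons. It read 6.85, 6.74 and 7.58 in HSC of WT mice 3, 12 and 64 and 7.02, 7.51 and 5.42 in HSC of KO mice 2, 11 and 70. In MPP it read 3.93, 4.35 and 3.98 in the WT mice and 5.34, 5.55 and 3.88 in the KO mice. HSC lay above MPP in each of the 6 mice, but the HSC array of KO mouse 70, at 5.42, fell inside the range of the KO MPP arrays. Its MPP means, 4.09 in WT and 4.92 in KO mice, were both under the filter value of 4.96. It passed the filter only through its HSC arrays, with means of 7.06 and 6.65, so its call is not independent of the filter. The WT MPP arrays were all below the filter value and may be background, in which case the difference is too small. The difference was 2.35 over both genotypes (SE 0.38, adjusted p = 0.00524), 2.97 in WT (SE 0.54, adjusted p = 0.0206) and 1.73 in KO (SE 0.54, adjusted p = 0.193). With the mouse as a block the KO difference passed as well, at an adjusted p of 0.0372. It also passed without KO mouse 70, at 1.82 (adjusted p = 0.0493). The WT call was lost without mouse 3, 12 or 64 (adjusted p = 0.149, 0.110 and 0.211), which leaves 2 WT mice. The interaction with genotype was -1.24 (SE 0.77, adjusted p = 0.9996).

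**Figure D1:**
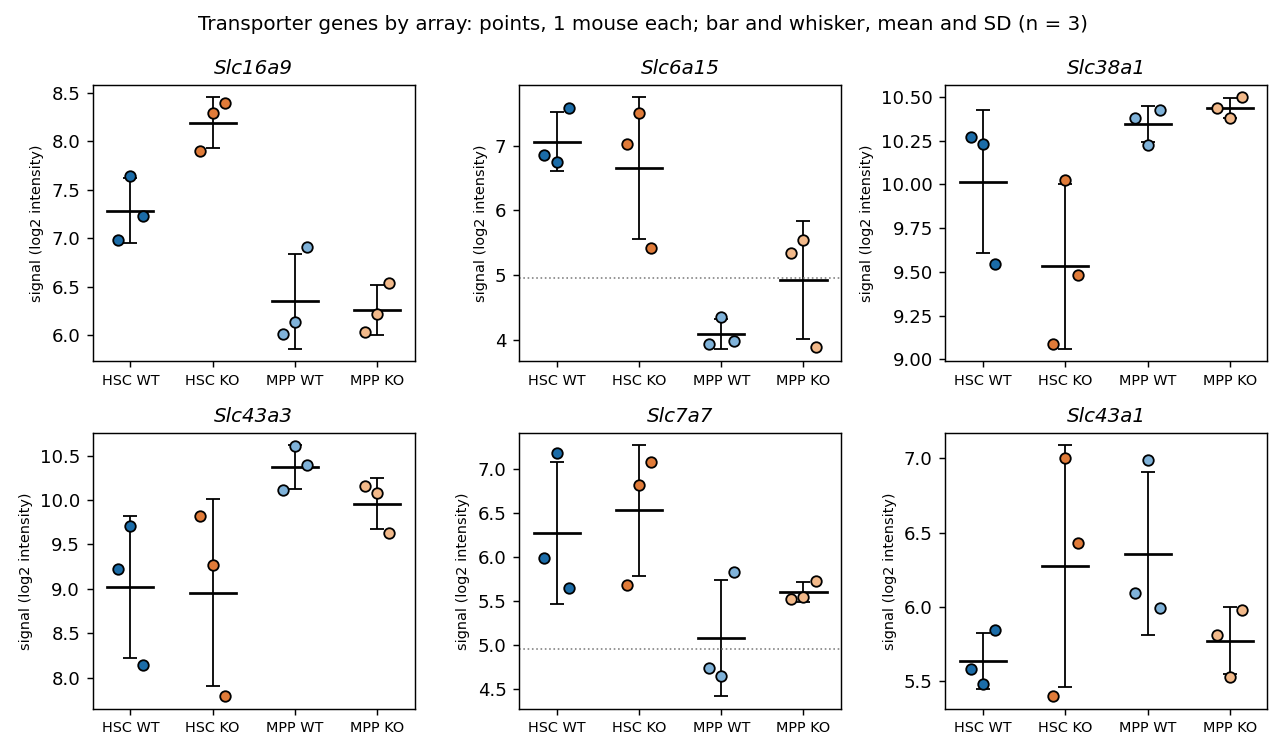
Signal (log2 intensity, y axis) of 6 transporter genes in HSC and MPP of WT and KO mice (x axis); each point is 1 array, bars and whiskers are the mean and SD of 3 mice, and the dotted line is the filter value of 4.96. The 6 HSC points of Slc16a9 all lie above its 6 MPP points, while Slc6a15 has 1 KO HSC point among its KO MPP points and the other 4 genes have HSC and MPP points that overlap when WT and KO mice are pooled.

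Other carriers leaned to HSC without passing. Slc7a7, the y+LAT1 light chain that exports lysine and arginine in return for neutral amino acids, read 5.99, 7.19 and 5.65 in WT HSC and 5.68, 6.82 and 7.08 in KO HSC. Its MPP values were 4.74, 4.65 and 5.83 in WT and 5.52, 5.54 and 5.73 in KO mice. The arrays of the populations overlapped, and the difference over both genotypes was 1.07 (SE 0.33, adjusted p = 0.101), with an adjusted p of 0.0453 at a difference of 1.28 when the HSC array of KO mouse 2 was left out. Slc7a4, a member of the cationic amino acid carrier branch, was higher in HSC in all 6 mice by 0.06 to 0.78 (0.37 over both genotypes, SE 0.13, adjusted p = 0.147). The glutamate carrier genes Slc1a1 and Slc1a7 were also higher in HSC in all 6 mice. Slc16a12, a creatine carrier, read 5.80, 5.30 and 5.78 in WT HSC against 4.96, 5.04 and 5.16 in WT MPP, which do not overlap, and 5.23 ± 0.18 against 5.14 ± 0.17 in KO mice (SD, n = 3 each). Its difference was 0.57 in WT (SE 0.18, adjusted p = 0.158) and 0.09 in KO (0.02 without the HSC array of KO mouse 2). Slc7a7, Slc7a4, Slc1a1 and Slc1a7, and Slc43a3, Slc38a10, Slc16a4 and Slc16a6 elsewhere, are named because of their values.

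In the other direction, the 3 genes of the Slc43 family had lower means in HSC than in MPP over both genotypes, and none passed; for Slc43a1 the value of -0.11 became 0.11 without the HSC array of KO mouse 2. Slc43a3, a purine nucleobase carrier, read 9.22, 9.71 and 8.14 in WT HSC and 9.82, 9.27 and 7.79 in KO HSC, against 10.11, 10.61 and 10.39 in WT MPP and 10.16, 10.08 and 9.63 in KO MPP. HSC lay lower in all 6 mice, by 0.35 to 2.25, and the WT groups do not overlap. The difference over both genotypes was -1.17 (SE 0.35, adjusted p = 0.0922), and it passed without the HSC array of KO mouse 2 (-1.39, adjusted p = 0.0454) and with array weights (-1.28, adjusted p = 0.0437). Slc43a2, the LAT4 carrier of leucine and other large neutral amino acids, was lower in HSC in all 6 mice as well, by 0.07 to 1.95, at -0.83 over both genotypes (SE 0.34, adjusted p = 0.213). Slc43a1, the related LAT3, was lower in HSC of the WT mice by 0.15 to 1.51 and higher in HSC of KO mice 11 and 70 by 1.47 and 0.45. Its interaction of 1.23 (SE 0.53, unadjusted p = 0.042) had an adjusted p of 0.9996.

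Slc38a1, which brings glutamine into cells with sodium, read 10.27, 10.23 and 9.54 in WT HSC and 9.09, 10.03 and 9.48 in KO HSC. Its MPP arrays were close together, at 10.38, 10.23 and 10.43 in WT and 10.44, 10.38 and 10.50 in KO mice. All 3 KO HSC arrays lay below all 3 KO MPP arrays, by 0.91 on average (SE 0.25, adjusted p = 0.129), while the WT groups overlapped (-0.33, SE 0.25). Over both genotypes the difference was -0.62 (SE 0.18, adjusted p = 0.0772).

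**Figure D2:**
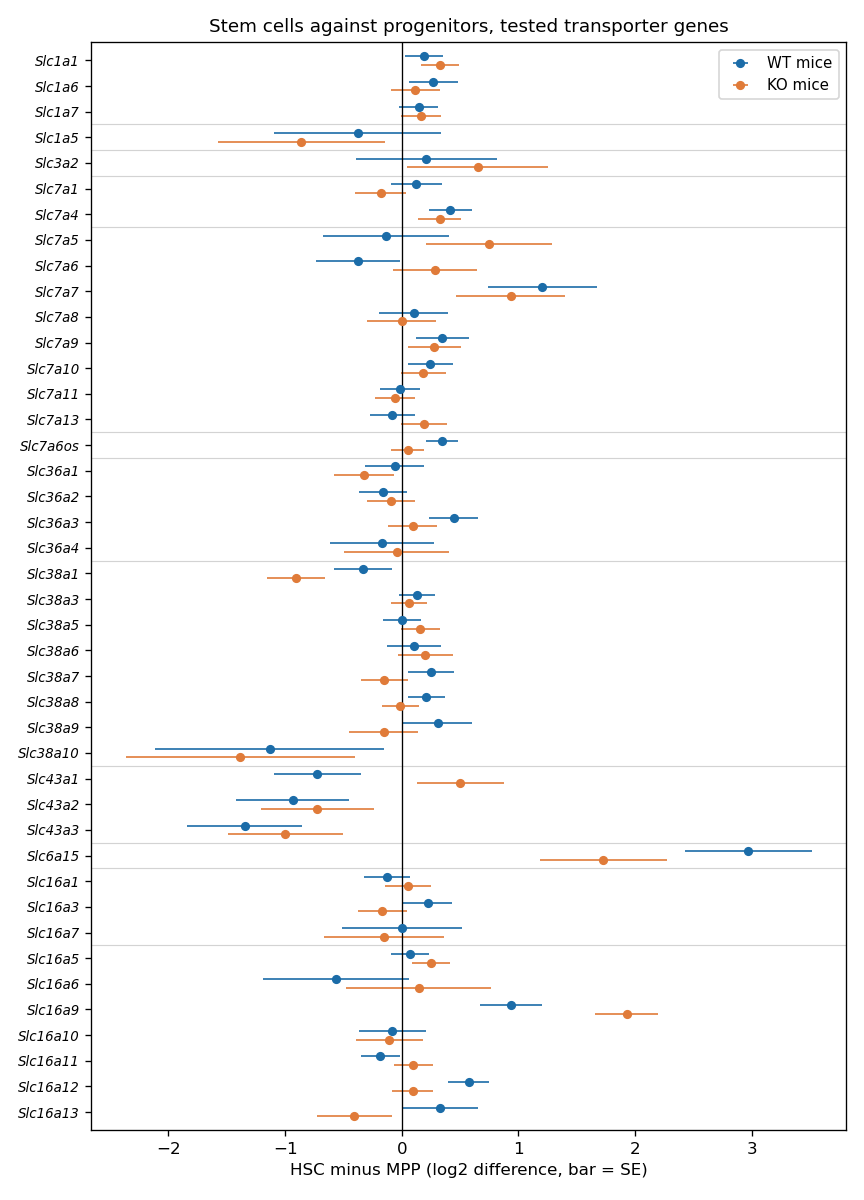
Difference between HSC and MPP (log2, x axis) for the 42 tested transporter genes (y axis, grouped by family), in WT mice and in KO mice; points are group differences of 3 arrays against 3 and bars their SE. Slc6a15 (2.97 in WT) and Slc16a9 (1.93 in KO) lie farthest to the right, and the Slc43 genes and Slc38a10 lie to the left in WT mice.

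None of the carriers that define the main transport systems passed between the populations. The heavy chain Slc3a2 read 8.61 ± 1.13 in WT HSC, 8.40 ± 0.85 in WT MPP, 8.47 ± 0.43 in KO HSC and 7.82 ± 0.82 in KO MPP (SD, n = 3 each), a difference of 0.43 (SE 0.43, adjusted p = 0.607) over both genotypes. Its range over the 12 arrays was 2.54, and mice 64 and 70 had the lowest array of their group in both populations. Its leucine light chain Slc7a5 differed by 0.31 (SE 0.38, adjusted p = 0.690), and the glutamine exchanger Slc1a5 by -0.62 (SE 0.51, adjusted p = 0.527). Without the HSC array of KO mouse 2 these became 0.02 (SE 0.32) and -0.13 (SE 0.30). At the standard errors over all arrays a difference of 1 would not have been detectable. Of the lactate carriers, Slc16a1 differed by -0.04 (SE 0.14, adjusted p = 0.910; -0.09 without that array) and Slc16a3 by 0.03 (SE 0.15, adjusted p = 0.935), and Slc16a7, less tightly measured, by -0.08 (SE 0.36, adjusted p = 0.926; -0.16 without it). The lysosomal Slc38a9 and Slc36a1 differed by 0.08 (SE 0.21) and -0.19 (SE 0.18), with adjusted p of 0.869 and 0.586, and Slc38a9 by 0.02 without that array. Slc7a1, the main arginine carrier of many cells, differed by -0.03 (SE 0.15, adjusted p = 0.939), and the cystine carrier Slc7a11 by -0.04 (SE 0.12, adjusted p = 0.888; -0.08 without it).

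Counted without regard to the test, 10 of the 42 genes (23.8%) had WT HSC and MPP arrays that do not overlap, beside 21.3% of all genes. They were Slc16a9, Slc16a12, Slc1a1, Slc1a6, Slc36a3, Slc43a1, Slc43a3, Slc6a15, Slc7a6os and Slc7a9. In KO mice there were 3 (7.14%, beside 17.1% of all genes), namely Slc16a9, Slc38a1 and Slc7a4. The direction was the same in all 6 mice for 7 genes (16.7%, beside 13.9% of all genes): Slc16a9, Slc1a1, Slc1a7, Slc6a15 and Slc7a4 were higher in HSC, and Slc43a2 and Slc43a3 lower. By family, 6 of the 8 tested light chains and 6 of the 8 tested Slc38 genes had higher means in HSC over both genotypes, as did 3 of 3 glutamate carriers, while 3 of 4 Slc36 genes had lower means. Taken by genotype, 4 of 8 light chains were higher in WT and 6 of 8 in KO mice, and 6 of 8 Slc38 genes in WT and 3 of 8 in KO mice. Of all 14620 genes, 7922 were higher in WT and 8354 in KO mice. Some of these signs belong to differences near 0, such as -0.001 for Slc7a8 in KO mice and 0.004 for Slc38a5 in WT mice. Without the HSC array of KO mouse 2 the signs of Slc7a8 and Slc38a3 in KO mice turned. Over both genotypes those of Slc7a6, Slc7a13 and Slc38a7 did. Over the whole set 24 of 42 (57.1%) had higher means in HSC, beside 57.2% of all genes.

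Markers of other cells also differed between the populations. Over the B cell markers (7 of 8 measured) the mean was 5.83 to 6.10 on HSC arrays and 6.61 to 7.18 on MPP arrays, and over the megakaryocyte markers (6 of 7) it was 6.96 to 7.23 against 6.40 to 7.03. Neutrophil markers (9 of 10) varied most. On HSC arrays they averaged 5.93 to 8.07 for WT mice and 5.64 to 7.81 for KO mice, and on MPP arrays 4.83 to 7.10 and 5.89 to 6.83. Monocyte and macrophage markers (6 of 8) read 5.65 to 6.56 on HSC arrays and 6.48 to 7.10 on MPP arrays. List means of T and NK cells (7 of 8), dendritic cells (6 of 6) and endothelium and stroma (8 of 8) lay between 4.70 and 4.94, 4.86 and 5.51, and 5.78 and 6.01. Over both genotypes 2.92% of all genes passed as lower in HSC. Of the tested markers, 4 of 6 B cell and 3 of 6 monocyte and macrophage markers did. So did 1 of 4 dendritic and 1 of 5 endothelial and stromal markers, Ccr9 and Pecam1. By sign alone, 2 of these 4 and 4 of these 5 had higher means in HSC. As higher in HSC, 1 of 6 megakaryocyte markers passed, beside 282 of all 14620 genes. Ccr9 averaged 4.49 in WT and 4.47 in KO HSC against 6.29 and 5.87 in MPP. Pecam1 averaged 6.66 and 6.82 against 7.96 and 7.92. The part of any such cells in the carrier values was not tested, and in sorted pools fewer cells of a type cannot be told apart from less RNA per cell.

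The second question was whether loss of Nfat5 changed these carriers. In limma's test none of the 42 passed in HSC, in MPP or in the mean of both populations of each mouse, and none of all 14620 genes did (0% in each comparison). Nfat5 itself did not pass either, with an adjusted p of 0.566 in HSC and 0.9999 in MPP. At an unadjusted p under 0.05 the counts were 2 of 42 (4.76%) in HSC, where 6.29% of all genes had such a p, and 0 of 42 in MPP, where 3.19% did. In the mean of both populations it was 1 of 42 (2.38%), beside 4.45% of all genes. The median difference between KO and WT was 0.01 in HSC and 0.06 in MPP for these carriers, and 0.02 and 0.00 for all genes. WT and KO arrays did not overlap for 5 carriers in HSC (11.9%, beside 8.87% of all genes), for 4 in MPP (9.52%, beside 9.49%) and for 2 in the mean of both (4.76%, beside 8.69%).

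Slc16a9 had the lowest unadjusted p of the carriers in HSC. Its KO arrays, 7.90, 8.29 and 8.39, all lay above the WT arrays given above, of which the highest was 7.64. The difference was 0.91 (SE 0.27, unadjusted p = 0.0063, adjusted p = 0.638), while in MPP it was -0.08 (SE 0.27) with overlapping groups. The other carriers whose HSC groups do not overlap were all lower in KO. Slc16a13 read 6.97, 7.47 and 6.63 in WT and 6.49, 6.21 and 6.43 in KO HSC (-0.65, SE 0.32, adjusted p = 0.818). Slc16a7, the high-affinity lactate and pyruvate carrier MCT2, read 7.25, 7.46 and 6.85 in WT and 6.85, 6.22 and 6.52 in KO HSC, where the closest arrays were level to 2 decimals (-0.66, SE 0.51, adjusted p = 0.932). In MPP its KO array of mouse 2, at 5.22, lay far below the other 11 arrays, which ran from 6.22 to 7.63.

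Slc7a1 read 6.28, 6.04 and 6.09 in WT HSC and 5.75, 5.49 and 5.99 in KO HSC, a difference of -0.39 (SE 0.22, adjusted p = 0.867). In MPP its groups overlapped (-0.08, SE 0.22). Slc7a6os read 7.18, 7.29 and 7.19 in WT and 6.90, 7.14 and 6.86 in KO HSC (-0.25, SE 0.14, adjusted p = 0.867). Its neighbour Slc7a6, the y+LAT2 light chain, read 6.53 ± 0.40 in WT and 7.22 ± 0.33 in KO HSC (SD, n = 3 each), with overlapping arrays and a difference of 0.68 (SE 0.36, adjusted p = 0.839). The pair had opposite signs in HSC. They lie on the chromosome of Nfat5, with 18 and 19 protein-coding genes between them and it. Slc16a12 (-0.40, SE 0.18, unadjusted p = 0.045, adjusted p = 0.790) and Slc38a1 (-0.48, SE 0.25, adjusted p = 0.833) had lower means in KO HSC with overlapping arrays. The value of Slc38a1 was -0.73 without mouse 11 and -0.26 without the HSC array of KO mouse 2.

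Slc7a11, or xCT, imports cystine for glutathione synthesis and is a known target of ATF4, the factor of the amino acid response. Its promoter is printed because the 250 bases before its start hold 2 copies of the letters bound by C/EBP and ATF pairs, TGATGNAA on either strand. The window is chr3:50443614-50443863 on the minus strand of GRCm38.p6, in RefSeq, with the copies in capitals at 66 to 59 bases before the start, on the strand of the gene, and at 47 to 40 bases, on the opposite strand.
Slc7a11: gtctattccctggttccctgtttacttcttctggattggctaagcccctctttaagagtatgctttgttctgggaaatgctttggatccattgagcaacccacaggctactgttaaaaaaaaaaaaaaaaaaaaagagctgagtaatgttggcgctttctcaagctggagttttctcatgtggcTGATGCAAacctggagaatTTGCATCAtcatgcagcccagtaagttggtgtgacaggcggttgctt
Of the 32851 windows, 3.45% hold these letters and 0.0396% hold 2 or more copies. Among the 51 windows of these carriers 3 do (5.88%), from Slc7a11 and Slc7a7, and the copies do not overlap the letters TGGAAA.

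Slc7a11 read 4.87, 4.53 and 5.19 in WT HSC and 5.30, 5.05 and 5.11 in KO HSC, and 4.96, 4.88 and 4.80 in WT MPP and 5.14, 5.29 and 5.22 in KO MPP. The KO arrays lay above the WT arrays in MPP without overlap, and overlapped them in HSC through WT mouse 64. The differences were 0.29 in HSC (SE 0.17, adjusted p = 0.872) and 0.33 in MPP (SE 0.17, adjusted p = 0.9999). In the mean of the arrays of each mouse the difference was 0.31 (SE 0.12, unadjusted p = 0.039, adjusted p = 0.9999), with no overlap between the 3 KO and 3 WT mice. The signal lay near the filter value of 4.96 on all arrays. Slc7a1 was the other carrier without overlap in that mean, at -0.24 (SE 0.13, adjusted p = 0.9999).

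**Figure D3:**
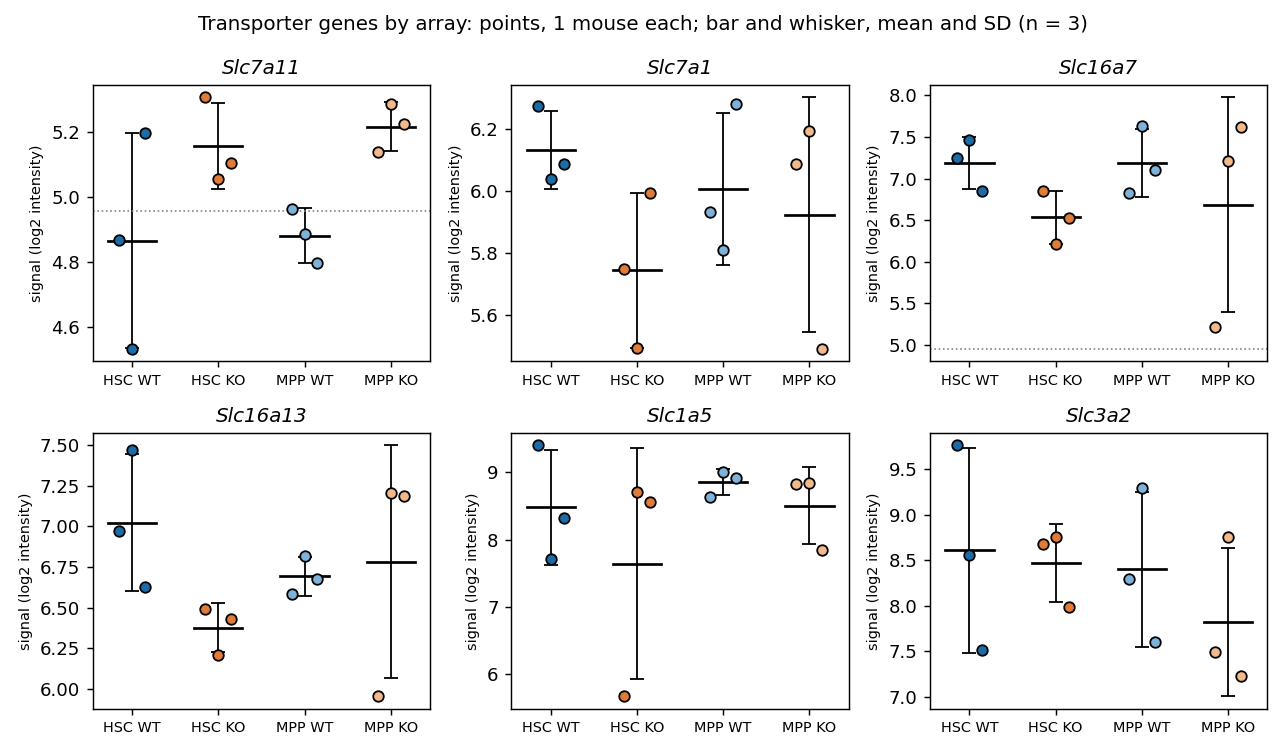
Signal (log2 intensity, y axis) of 6 transporter genes in HSC and MPP of WT and KO mice (x axis); each point is 1 array, bars and whiskers are the mean and SD of 3 mice, and the dotted line is the filter value of 4.96. KO points of Slc7a11 lie above WT points in MPP, and KO points of Slc7a1 and Slc16a13 lie below WT points in HSC. For Slc16a7 in HSC the highest KO point and the lowest WT point are level at 6.85. In Slc1a5, 1 KO HSC point, at 5.67, lies far below its other points.

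In MPP the carriers with the lowest unadjusted p beside Slc7a11 were Slc16a3, Slc38a5, Slc16a10 and Slc38a9. Slc16a3, the lactate exporter MCT4, read 5.51 ± 0.15 in WT and 5.93 ± 0.47 in KO (SD, n = 3 each), a difference of 0.42 (SE 0.21, adjusted p = 0.9999) in which KO mouse 70, at 6.46, was the highest array, and 0.16 without that mouse. Slc38a5, a glutamine carrier, differed by -0.29 (SE 0.17, adjusted p = 0.9999), and Slc16a10, an aromatic amino acid carrier, by 0.46 (SE 0.29, adjusted p = 0.9999), and in HSC by 0.43 (SE 0.29, adjusted p = 0.896; 0.78 without the HSC array of KO mouse 2). Slc38a9, the arginine sensor of the lysosome, read 9.58, 9.48 and 9.23 in WT and 9.79, 10.23 and 9.67 in KO MPP, which do not overlap, at 0.47 (SE 0.30, adjusted p = 0.9999). In HSC it differed by 0.01 (SE 0.30, adjusted p = 0.999), and by -0.11 without the HSC array of KO mouse 2. Slc43a1 and Slc38a8 were the other carriers without overlap in MPP, at -0.59 (SE 0.38) and 0.16.

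The remaining carriers of the main systems showed wide or small differences. Slc1a5 read 9.41, 7.71 and 8.33 in WT HSC and 5.67, 8.71 and 8.56 in KO HSC. The low value belonged to KO mouse 2, and the difference of -0.84 (SE 0.72, adjusted p = 0.943) became 0.15 (SE 0.45, adjusted p = 0.991) without that array. Slc3a2 differed by -0.14 in HSC and -0.58 in MPP (SE 0.60 each), and Slc7a5 by 0.48 and -0.41 (SE 0.54 each), so a change of 1 on the log2 scale was not detectable for them. Slc7a5 read 6.31, 6.06 and 7.05 in WT HSC and 8.12, 6.93 and 5.81 in KO HSC, and without the array of KO mouse 2, the highest, its difference turned to -0.10 (SE 0.48), while that of Slc3a2 was -0.24. Slc16a1 was measured more closely, at -0.04 in HSC and -0.23 in MPP (SE 0.20 each), and Slc36a1 at 0.08 and 0.34 (SE 0.26 each), with HSC values of -0.16 and -0.02 without that array. Their smaller SEs do not show that a change of 1 would have passed. Of all 14620 genes, 363 differed by more than 1 between KO and WT in HSC and 206 in MPP, and none passed. The differences of the 42 tested carriers ran from -0.84 to 0.99 in HSC. The upper end was Slc16a6, a taurine and ketone body carrier, whose WT HSC arrays of 7.58, 6.12 and 4.73 overlapped the KO arrays of 6.95, 6.56 and 7.90 (0.99, SE 0.62, adjusted p = 0.885).

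**Figure D4:**
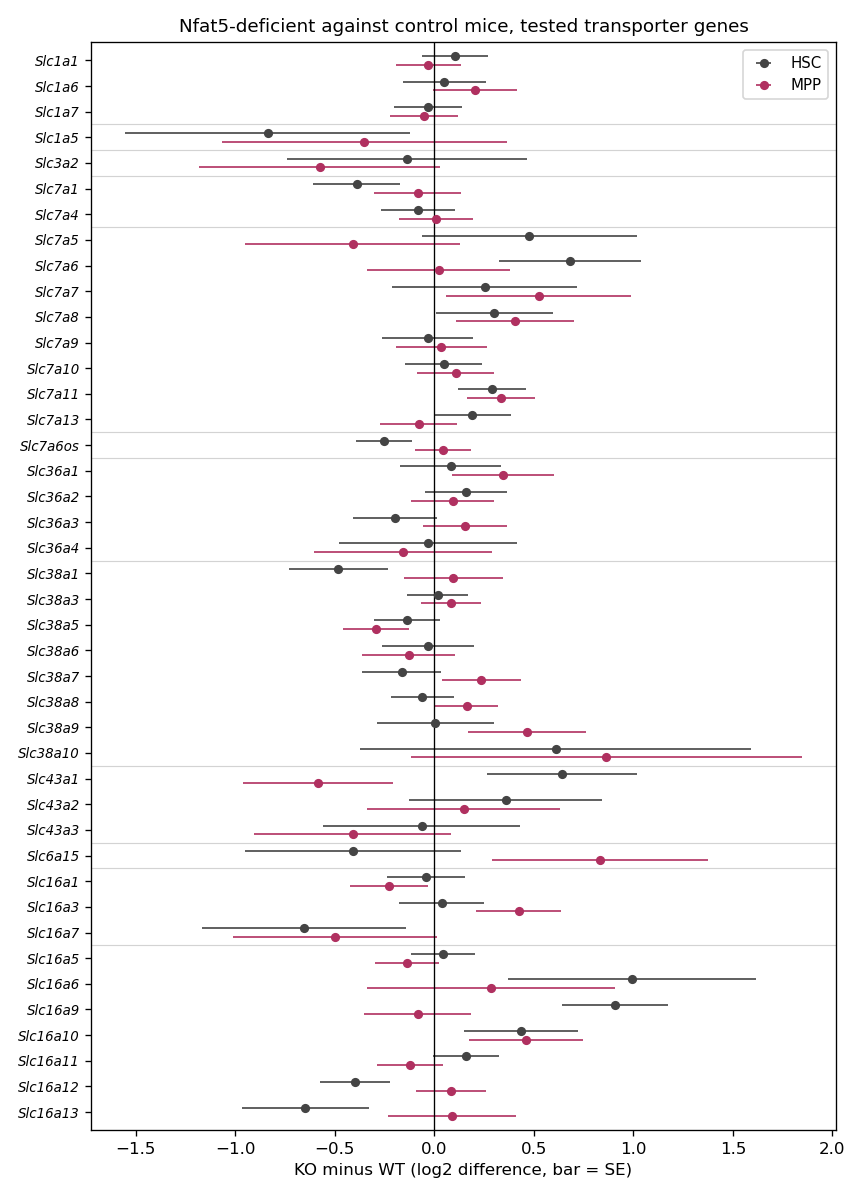
Difference between KO and WT mice (log2, x axis) for the 42 tested transporter genes (y axis, grouped by family), in HSC and in MPP; points are group differences of 3 arrays against 3 and bars their SE. No gene passed the test, the differences in HSC ran from -0.84 to 0.99, and Slc7a11 and Slc16a10 are among several genes to the right of 0 in both populations.

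The difference between genotypes was also compared between the populations. None of the 42 carriers passed for the interaction (0% of all genes), and 2 had an unadjusted p under 0.05 (4.76%, beside 4.5% of all genes), namely Slc16a9 at 0.99 and Slc43a1 at 1.23. Slc16a12 at -0.48 (SE 0.25), Slc38a1 at -0.58 (SE 0.35; -0.36 without the HSC array of KO mouse 2), Slc16a13 at -0.74 (SE 0.45) and Slc6a15 at -1.24 were next, each with an adjusted p of 0.9996. With 3 mice a genotype, an exact test of a single gene could not go below a two-sided p of 0.10. Erythroid markers (6 of 9 measured) averaged 6.37 to 6.95 in WT HSC and 5.86 to 6.40 in KO HSC. In MPP they averaged 5.97 to 6.28 in WT and 6.01 to 6.90 in KO mice. The largest fall in HSC was that of Car1, from 8.31 to 6.61, while Epor went from 6.08 to 6.23. By sign, 7 of 8 tested neutrophil markers were lower in KO HSC and 6 of 8 higher in KO MPP. No marker of either list passed, and the part of such cells in these differences was not tested.

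Genes around the carriers were read from 5 lists. These were chosen with earlier results of these data known, so their counts add no independent support. The partners of the Slc16 carriers and the genes of lactate and pyruvate handling, a list that also took in Myc, held the clearest difference. Embigin, the partner of Slc16 carriers beside basigin, read 8.66, 9.33 and 8.94 in WT HSC and 8.74, 8.90 and 9.15 in KO HSC, against 10.38, 10.97 and 10.71 in WT MPP and 10.50, 10.70 and 10.25 in KO MPP. No HSC array reached any MPP array, and the difference was -1.71 in WT (SE 0.22, adjusted p = 0.00319), -1.55 in KO (SE 0.22, adjusted p = 0.00647) and -1.63 over both (SE 0.15, adjusted p = 2.1e-04). The WT call was lost without mouse 64 (adjusted p = 0.0594) and the KO call without mouse 2 or 11 (adjusted p = 0.0950 and 0.0879). Basigin differed by 0.15 over both genotypes (SE 0.22, adjusted p = 0.745). Of the 10 tested genes of this list, 2 were lower in HSC in WT mice and 1 in KO mice and over both, with none higher, beside 1.32%, 0.739% and 2.92% of all genes lower in HSC.

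The other gene that was lower in WT HSC was Myc, a growth factor-driven transcription factor that activates many amino acid and lactate carriers. It read 7.28, 7.52 and 6.37 in WT HSC, 8.64, 8.37 and 7.97 in KO HSC, 8.46, 8.96 and 8.19 in WT MPP and 8.40, 7.99 and 8.63 in KO MPP. The WT HSC arrays lay below those of the 3 other groups, at -1.48 against WT MPP (SE 0.32, adjusted p = 0.0435). That call was lost in 9 of the alternatives tried, among them each left-out mouse, with adjusted p up to 0.187. KO against WT in HSC was 1.27 (SE 0.32, unadjusted p = 0.0023, adjusted p = 0.551), and the interaction was 1.47 (SE 0.45, adjusted p = 0.994).

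Of the 17 tested enzymes of glutamine, serine and branched-chain amino acids, 1 was lower in HSC in WT mice and 2 over both genotypes, beside the same 1.32% and 2.92% of all genes. Shmt2, the mitochondrial serine enzyme of the folate cycle, fell by 1.27 in WT HSC against MPP (SE 0.24, adjusted p = 0.0230) and by 0.74 over both genotypes (SE 0.17, adjusted p = 0.0287). In KO mice it did not pass, at 6.21 in HSC against 6.43 in MPP, so the value over both rested mainly on WT mice. Its KO HSC arrays, 5.95, 6.39 and 6.28, lay above its WT HSC arrays, 5.61, 5.82 and 4.97. That difference between KO and WT was 0.74 (adjusted p = 0.659). Psat1, of serine synthesis, fell by 1.20 over both (SE 0.28, adjusted p = 0.0344). In cystine use and glutathione synthesis 1 of 9 was lower over both genotypes, Gclc, the limiting enzyme of glutathione synthesis, at -0.78 (SE 0.15, adjusted p = 0.0146). The call of Shmt2 over both genotypes was lost without mouse 2, 3, 11, 12 or 70 (adjusted p up to 0.119), that of Psat1 without mouse 2, 3, 11, 12 or 64 (up to 0.147) and that of Gclc without mouse 2, 3, 12 or 64 (up to 0.0894). The call of Shmt2 in WT mice was lost without mouse 3, 12, 64 or 70 (up to 0.153). Without the HSC array of KO mouse 2 alone, Shmt2 and Psat1 also missed the threshold over both genotypes (adjusted p = 0.0632 and 0.075). None of 28 genes of amino acid sensing and mTORC1 and none of 19 other amino acid and peptide carriers passed in any comparison. Between KO and WT no gene of the 5 lists passed, and the median differences in HSC ran from -0.06 to 0.16. Chac1, which degrades glutathione and is an ATF4 target, was 0.30 higher on average in KO HSC and 0.59 in KO MPP, at 0.44 in the mean of both (SE 0.14, unadjusted p = 0.014, adjusted p = 0.9999).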

How the data were processed

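Expression was measured on 12 arrays. The deposited values are log2 intensities. Per the submitters' processing notes, the authors used RMA and limma. The array's genome build is not stated in any source used here. Probe sets were named from GEO's platform annotation, matched to RefSeq by gene identifier: of 22142, 19527 had 1 symbol, 0 several and 2615 none. For 33 genes with several probe sets the highest mean was taken. Genes in the lowest 25% by mean (4874) were left out, which can favour genes high in 1 group.

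A group-means model over all 12 arrays was fitted with limma 3.58.1 (R 4.3.3, statmod 1.5.0), with two-sided moderated tests and Benjamini-Hochberg adjustment over 14620 genes. To compare genotypes over both populations, each mouse's HSC and MPP arrays were averaged first. The script was tested on simulated data. RMA can compress fold changes, and 3 arrays a group limit the precision.

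The members and lists were chosen with earlier results of these data known. Named genes are those that passed, up to 5 with the lowest unadjusted p in each comparison of genotypes and in the interaction, carriers that define a system, neighbours of Nfat5, and up to 3 genes a list; genes named for their values are marked. HSC and MPP arrays are paired by the number in their titles, which is read as the mouse. The deviations of the arrays of a mouse correlated at 0.032 to 0.091, and the consensus correlation was 0.0723. For 2 of the 6 mice the HSC array correlated best with the MPP array of the same number. Alternatives changed the filter, probe-set rule, normalization, moderation, array weights, fitted arrays, block and mice.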

Additional observations from a re-analysis of the deposited data

How the results depend on the processing

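No carrier passed between KO and WT, or for the interaction, under any alternative that was run. Between HSC and MPP, the count of carriers that passed in WT went from 1 to 0 when the lowest 50% of genes was left out, which removes Slc6a15, and ran from 0 to 1 when mice were left out. In KO it rose to 2 with the replicate block for mouse (Slc6a15 joined Slc16a9) and ran from 0 to 2 with mice left out. Over both genotypes it was 1 at the 50% filter and 4 without the HSC array of KO mouse 2 (with Slc43a3 and Slc7a7), and 2 to 3 under the other settings. The block changed no other call of a carrier. It ended that of Psat1 (adjusted p = 0.121). Of 62 results on single genes, 49 kept sign and call throughout. The sign of Slc1a5 between KO and WT in HSC turned, from -0.84 to 0.15, without KO mouse 2 or its HSC array alone, and with mice left out the value ran from -1.37 to 0.15. The mean of both populations was not run with the block or without that single array, and the fit of only the arrays compared was not run over both genotypes or for the interaction. Signal near the filter value limits what can be said of Slc7a11, Slc6a15 in MPP and the 14 genes left out.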
